A study of Mus musculus with 2 samples.

Results

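Protein is taken up in the small intestine as short peptides and as free amino acids. Villus enterocytes draw these in through carriers of the brush border membrane and release amino acids to the blood through carriers of the basolateral membrane. Several of these carriers work as pairs, in which a light chain of the Slc7 family does the transport and a heavy chain of the Slc3 family brings it to the membrane. The 9 genes described here are Slc15a1 (the proton-coupled peptide carrier PEPT1), Slc6a19 (the neutral amino acid carrier B0AT1), Slc6a20a (a carrier of proline and other imino acids), Slc7a9 with its heavy chain Slc3a1 (the brush border exchanger for cystine and basic amino acids), Slc7a15 (a light chain with a preference for aromatic amino acids), and Slc7a7 and Slc7a8 with their heavy chain Slc3a2 (basolateral exchangers). They were taken by symbol from the deposited tables, where they are 9 of 55357 genes, and all 9 are among the 27975 genes with at least 1 UMI in the cells kept.

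Small intestinal epithelium was measured by droplet-based 3′ RNA sequencing in 1 library of Adipfl/fl mice and 1 library of Adipfl/flpVilli-CreT mice. In both groups the adiponectin gene is flanked by loxP sites, and in the second a Cre recombinase driven by the villin promoter, which is active in the intestinal epithelium, deletes it. The study describes each library as a pool of 8-week-old male littermates, and its design text as crypt-enriched tissue. Each molecule was counted once by its unique molecular identifier (UMI). With 1 library per genotype no test between genotypes can be run, and every 95% interval given here covers counting error only, not the spread between mice.

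A barcode was kept when it held over 500 genes and its mitochondrial share was below 25%, which left 3069 of 9791 in the Adipfl/fl library (25687687 UMIs) and 5555 of 11838 in the Adipfl/flpVilli-CreT library (48895126 UMIs). Before the mitochondrial limit 7739 and 9818 barcodes passed. The study gives the same limits but counts more cells after filtering than they leave here, so the cells compared are not the same set. The median was 4838 and 4749 UMIs per cell, and of 31 barcodes that occurred in both libraries 3 were kept in both. Adipoq, the deleted gene, had 1 UMI over all barcodes of the Adipfl/fl library and 0 over those of the other, which is too few to check the labels. Cells were named from markers without use of the 9 genes, which gave 24 and 77 stem-like, 43 and 103 transit-amplifying (TA)-like, 221 and 434 villus bottom-like, 840 and 1378 mid-villus-like and 517 and 1557 villus tip-like cells (Adipfl/fl first). In the stem-like cluster 10 stem and 12 cycling (TA) markers were at least 2-fold above the other cells. In the TA-like cluster these numbers were 2 and 9, so both classes showed cycling markers. An enterocyte cluster of 396 and 576 cells, led by Ubd, stayed unnamed. So did a cluster of 92 and 187 cells, led by Dnm1, Mlxipl and Lypd8l, and several others. A level is the sum of a gene's UMIs in a class divided by the sum of all UMIs of that class, given as counts per 1000000 (CPM), and in the pairs of values that follow the Adipfl/fl library comes first. The labels name no segment of the small intestine, and the study's supplement calls the clusters ileum. The regional markers were mixed in enterocytes. Of the genes listed as distal, Fabp6 stood at 3.34 and 3.15 CPM, Slc10a2 at 1.64 and 2.11 and Fgf15 at 9.83 and 4.67, while Slc51a stood at 308 and 361 and Slc51b at 204 and 243. Of those listed as proximal, Lct stood at 737 and 611, Gata4 at 63.4 and 66.5 and Fabp1 at 5078 and 4019, while Cybrd1 stood at 0.668 and 1.34 and Slc40a1 at 3.52 and 2.26.

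On the mouse genome (GRCm38, GENCODE M21) the 9 genes lie on 7 chromosomes, and each is protein-coding. Slc15a1 (chr14:121459621-121505252), Slc7a7 (chr14:54369442-54417780) and Slc7a8 (chr14:54722209-54781946) share a chromosome. Slc6a19 lies at chr13:73679745-73704865, Slc6a20a at chr9:123634770-123678885, Slc7a9 at chr7:35448796-35466036, Slc7a15 at chr12:8528483-8599066, Slc3a1 at chr17:85028376-85064236 and Slc3a2 at chr19:8706882-8723369. The last 500 bases of 1 of 3 coding Slc6a20a transcripts match its paralog Slc6a20b at 92.2% identity, and counts of Slc6a20a could take in reads of that gene, although Slc6a20b itself held at most 2.92 CPM in any of the 5 classes. Of 8 coding Slc3a2 transcripts, 1 holds near its end a stretch that matches 1195 other genes (at most 132 bases, at 90.2% identity in the longest). Slc3a1 and Prepl overlap on opposite strands, as do Slc7a7 and Oxa1l, and the kit marks strand.

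The 250 bases before the RefSeq start of 3 genes are shown. Among the named classes of the crypt-villus axis, Slc15a1 and Slc7a15 were highest in the mid-villus-like class and Slc3a1 in the villus tip-like class. The 3 windows shown lie wholly ahead of the annotated gene, as does a Slc7a7 window (chr14:54417945-54418194) that is not shown. They are RefSeq sequences of GRCm38.p6, on the strand of the gene, at chr14:121505255-121505504 (minus strand, Slc15a1), chr12:8599067-8599316 (minus strand, Slc7a15) and chr17:85028097-85028346 (plus strand, Slc3a1). Capitals mark matches, on either strand, to 4 short motifs of factors known from enterocytes. The motif searched for the HNF4 factors was AAAGTCC, and the motif for the HNF1 factors was GTTAAT. That of the Gata factors was AGATAA, while the letters searched for the Cdx factors were TTTATT.
Slc15a1: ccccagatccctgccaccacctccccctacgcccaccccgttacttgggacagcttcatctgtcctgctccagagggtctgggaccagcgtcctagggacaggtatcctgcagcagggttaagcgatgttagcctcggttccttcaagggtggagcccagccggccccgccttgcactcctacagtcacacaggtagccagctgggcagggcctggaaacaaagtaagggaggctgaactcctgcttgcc
Slc7a15: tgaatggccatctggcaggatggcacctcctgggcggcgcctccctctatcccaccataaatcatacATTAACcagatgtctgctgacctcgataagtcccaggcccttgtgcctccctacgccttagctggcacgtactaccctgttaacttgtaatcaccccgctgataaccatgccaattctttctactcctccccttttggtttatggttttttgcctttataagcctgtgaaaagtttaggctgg
Slc3a1: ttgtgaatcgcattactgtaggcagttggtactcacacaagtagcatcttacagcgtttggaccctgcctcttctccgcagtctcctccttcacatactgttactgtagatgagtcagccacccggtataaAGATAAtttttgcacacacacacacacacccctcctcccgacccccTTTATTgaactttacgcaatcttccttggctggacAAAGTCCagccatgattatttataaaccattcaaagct
Of the 32851 mouse promoter windows of this length, 3.58% hold the HNF4 letters, 6.43% the HNF1 letters, 9.99% the Gata letters and 18.1% the Cdx letters. Slc3a1 was the 1 of the 9 genes with the HNF4 letters, 38 bases before its start, and its window also held the Gata and Cdx letters. Slc7a15, Slc6a20a and Slc7a7 held the HNF1 letters in at least 1 of their windows, and Slc15a1, Slc6a19 and Slc3a2 held none of the 4. The 9 genes have 15 windows in all, and the shares above are per window and not per gene. The windows of Slc6a19 and Slc3a2 lie inside the annotated gene. In Slc7a9 a Gata and a Cdx match overlap. A match is a string of letters and not a measured binding site.

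From crypt to villus, all 9 genes were at least 2-fold higher in mid-villus-like than in stem-like cells in both libraries. Over all genes tested, 19.9% (Adipfl/fl) and 19.0% (Adipfl/flpVilli-CreT) were that much higher. The 9 genes were chosen with earlier results of these data known, so the count is no test of them. In stem-like cells Slc6a20a (8.39 and 7.16 CPM) and Slc7a15 (7.19 and 8.84) were below 10 CPM in both libraries. Slc6a19 (9.59) was so in the Adipfl/fl library. These entered the comparison only through their mid-villus-like level. The median log2 fold of the 9 genes was 4.13 and 4.16, against −0.54 and −0.58 over all genes. The largest folds were those of Slc15a1, 71.6 (95% interval 37.7 to 157) and 31.0 (24.7 to 39.3), and the smallest those of Slc3a2, 3.58 (2.84 to 4.57) and 5.30 (4.53 to 6.23).

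**Figure D1:**
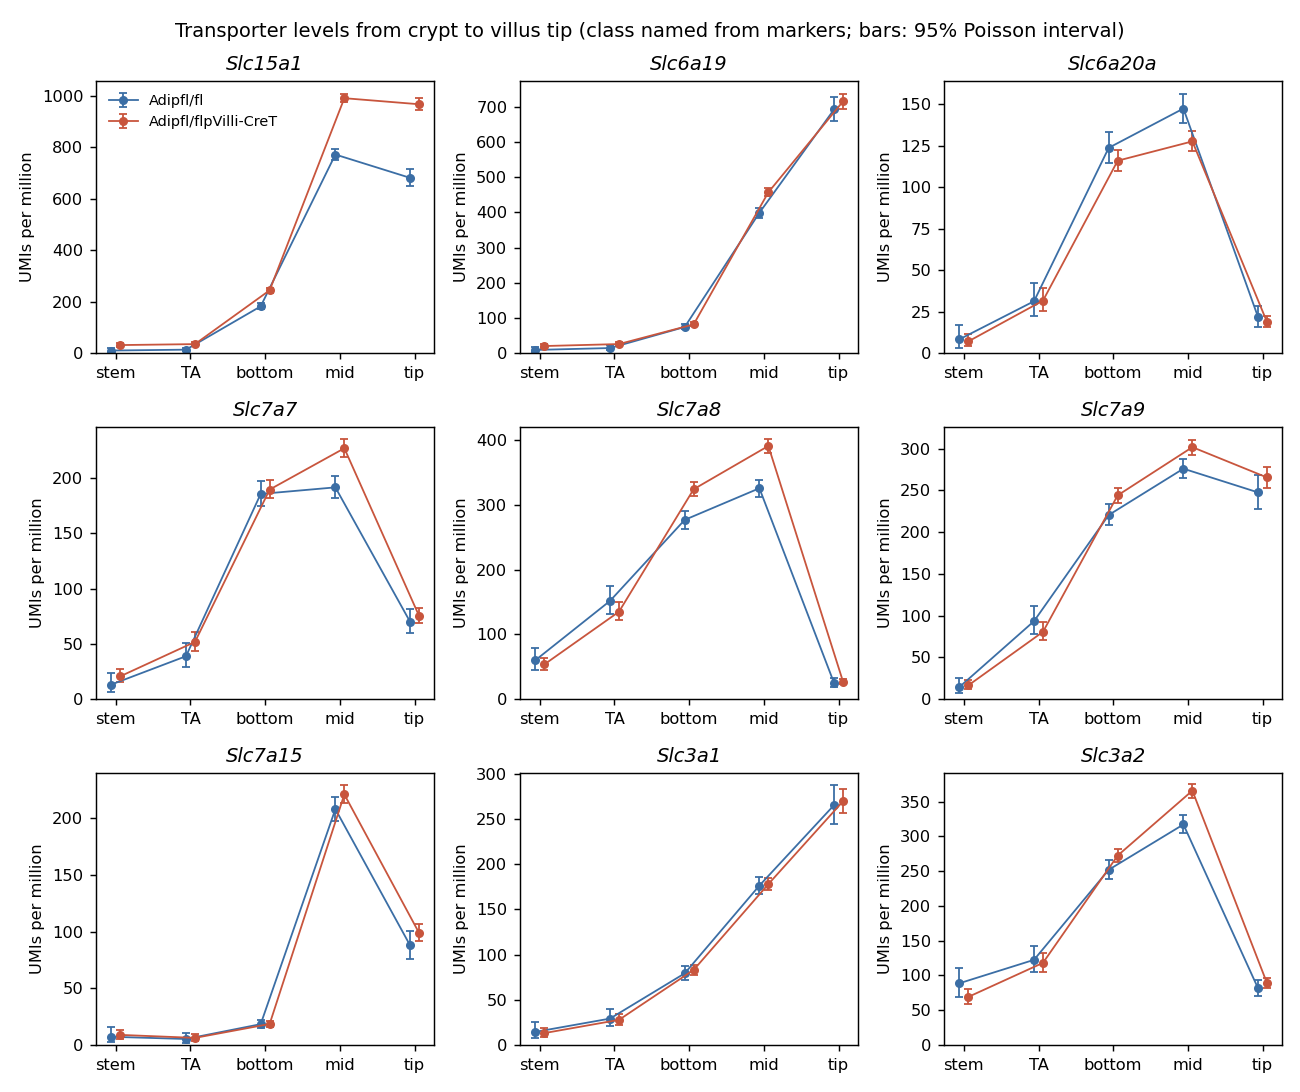
Level of each transporter gene in CPM (vertical axis, a scale for each gene) in stem-like, TA-like, villus bottom-like, mid-villus-like and villus tip-like cells of both libraries; points are sums over the cells of a class and bars 95% Poisson intervals. Among the classes shown, Slc6a19 and Slc3a1 were highest at the tip, while Slc6a20a, Slc7a7, Slc7a8, Slc7a15 and Slc3a2 dropped from mid-villus to tip in both libraries. The unnamed enterocyte cluster, not shown, had a higher level of each of these genes than the tip in both libraries.

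The peptide carrier Slc15a1 was low in the crypt and high over the whole middle and upper villus. It stood at 10.8 and 32.0 CPM in stem-like cells, 14.2 and 35.7 in TA-like cells, 183 and 245 at the villus bottom, 772 and 991 in mid-villus-like cells and 682 and 968 at the tip. The largest step was from TA-like to villus bottom-like cells, 12.9-fold (8.19 to 21.5) and 6.86-fold (5.60 to 8.47). From mid-villus to tip the fold was 0.883 (0.834 to 0.933) in the Adipfl/fl library and 0.976 (0.947 to 1.01) in the other, so that the interval held 1 in 1 of the 2 libraries. With fewer clusters (resolution 0.4) the Adipfl/fl fold was 1.05, so its direction depends on where the classes are divided. In the cluster with the most cells of those joined in the mid-villus class Slc15a1 stood at 902 and 1282 CPM. It stood at 901 and 1428 CPM in the unnamed enterocyte cluster. The size of the step to the tip thus also depends on how the classes are pooled.

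The neutral amino acid carrier Slc6a19 came later along the villus. Its levels were 9.59 and 20.6 CPM in stem-like cells, 14.9 and 26.2 in TA-like cells, 74.7 and 82.1 at the villus bottom, 399 and 457 in mid-villus-like cells and 692 and 715 at the tip. It was 1 of the 2 genes with a higher level in the tip class than in the mid-villus class, by 1.74-fold (1.63 to 1.84) and 1.57-fold (1.51 to 1.63). In the cluster with the most cells of those joined in the mid-villus class it already stood at 682 and 850 CPM. The rise to the tip thus depends on how the classes are pooled. The highest level of Slc6a19 was in the unnamed enterocyte cluster, with 943 and 1058 CPM.

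The brush border pair Slc7a9 and Slc3a1 rose together but did not keep the same ratio. Slc7a9, the light chain, stood at 14.4 and 16.4 CPM in stem-like cells and was already at 93.3 and 80.6 in TA-like cells, a step of 6.49-fold (3.59 to 12.9) and 4.90-fold (3.48 to 7.08). It then reached 220 and 244 at the villus bottom, 276 and 302 in mid-villus-like cells and 247 and 265 at the tip. Slc7a9 stood at 314 and 334 in the mid-villus cluster with the most cells, and at 340 and 377 in the unnamed enterocyte cluster. Slc3a1, the heavy chain, stood at 14.4 and 13.1 CPM in stem-like cells, 29.1 and 27.7 in TA-like cells, 79.1 and 82.9 at the bottom, 176 and 178 in mid-villus-like cells and 265 and 270 at the tip. It stood at 277 and 277 in the mid-villus cluster with the most cells, and at 286 and 300 in the unnamed enterocyte cluster. Between the pooled mid-villus and tip classes the heavy chain rose by 1.51-fold (1.37 to 1.66) and 1.52-fold (1.42 to 1.61), while the light chain stood at 0.897-fold (0.816 to 0.985) and 0.880-fold (0.831 to 0.931). The ratio of light to heavy chain UMIs therefore fell along the villus, from 2.79 (2.49 to 3.12) and 2.94 (2.73 to 3.17) at the bottom to 0.933 (0.831 to 1.05) and 0.984 (0.920 to 1.05) at the tip. The size of such a ratio also depends on how well each transcript is captured, and only its change between classes is read here.

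The basolateral genes had the opposite course at the upper end. Slc7a8, a light chain for neutral amino acids, was present from the crypt on, with 59.9 and 53.5 CPM in stem-like cells and 152 and 135 in TA-like cells, reached 277 and 324 at the villus bottom and 325 and 391 in mid-villus-like cells, and stood at 24.8 and 26.9 at the tip. Its tip level was 0.0762 (0.0575 to 0.0990) and 0.0689 (0.0588 to 0.0802) of that in mid-villus-like cells, the largest drop among the 9 genes. Slc7a7, a light chain that exchanges basic for neutral amino acids, ran from 13.2 and 20.6 CPM in stem-like cells and 38.8 and 51.8 in TA-like cells over 186 and 190 at the bottom and 192 and 227 in mid-villus-like cells to 70.0 and 75.4 at the tip, a last step of 0.365 (0.309 to 0.430) and 0.332 (0.301 to 0.366). The drop of the 2 light chains differed in size, with intervals that did not overlap. In the mid-villus cluster with the most cells, Slc7a8 stood at 160 and 193 CPM and Slc7a7 at 116 and 141. The size of both drops thus depends on how the classes are pooled. From the level of that cluster, the drop of Slc7a7 to the tip was below 2-fold.

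Slc3a2, the heavy chain of both, followed them. It stood at 88.7 and 69.1 CPM in stem-like cells, 122 and 118 in TA-like cells, 252 and 272 at the villus bottom, 317 and 366 in mid-villus-like cells and 81.3 and 88.7 at the tip. The last step was 0.256 (0.220 to 0.298) and 0.242 (0.222 to 0.264). The summed UMIs of Slc7a7 and Slc7a8 over those of Slc3a2 were 1.83 (1.72 to 1.96) and 1.88 (1.80 to 1.97) at the bottom, 1.63 (1.55 to 1.72) and 1.69 (1.63 to 1.747) in mid-villus-like cells and 1.17 (0.954 to 1.42) and 1.15 (1.03 to 1.29) at the tip.

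**Figure D2:**
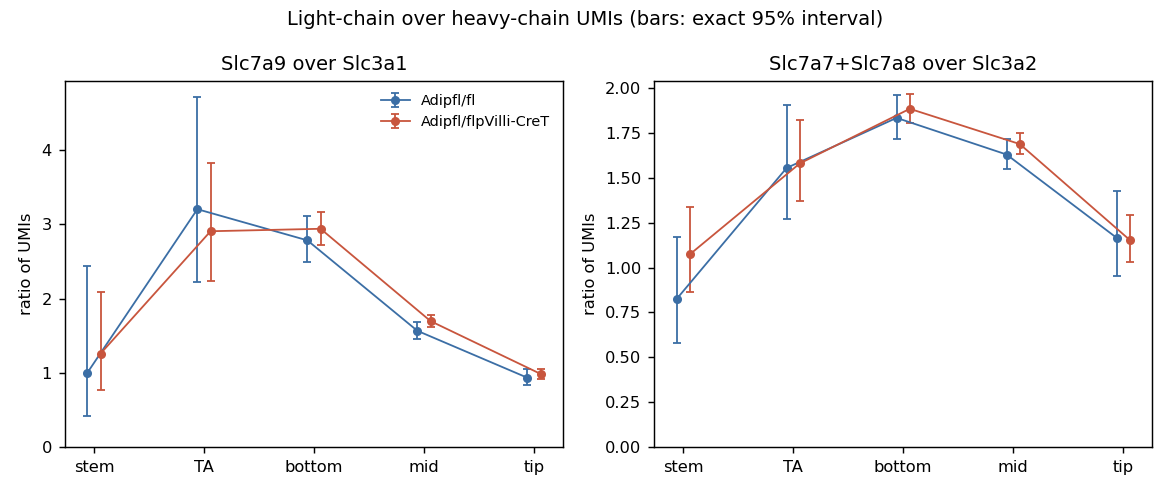
Ratio of light-chain to heavy-chain UMIs (vertical axis, from 0) by class and library for Slc7a9 over Slc3a1 and for Slc7a7 with Slc7a8 over Slc3a2; bars are exact 95% intervals. In both panels the ratio was lower at the tip than at the villus bottom, for Slc7a9 over Slc3a1 from 2.79 to 0.933 in the Adipfl/fl library.

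Slc6a20a and Slc7a15 were the remaining 2. Slc6a20a, the imino acid carrier, rose from 8.39 and 7.16 CPM in stem-like cells over 31.4 and 31.7 in TA-like cells to 124 and 116 at the bottom and 147 and 128 in mid-villus-like cells, and stood at 21.7 and 18.8 at the tip, a last step of 0.148 (0.109 to 0.196) and 0.147 (0.121 to 0.177). In the mid-villus cluster with the most cells Slc6a20a stood at 79.6 and 84.1 CPM, so the size of this step also depends on the pooling. Although it sits in the brush border, its course was that of the basolateral genes. Slc7a15 had the largest step of the 9 from villus bottom to mid-villus, 11.4-fold (9.27 to 14.1) and 11.97-fold (10.4 to 13.8). It had 7.19 and 8.84 CPM in stem-like cells, 5.23 and 6.20 in TA-like cells and 18.3 and 18.5 at the villus bottom, then 208 and 221 in mid-villus-like cells and 87.8 and 98.9 at the tip, with 245 and 263 in the unnamed enterocyte cluster.

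In all, 5 of 9 genes were at least 2-fold lower at the tip than in mid-villus-like cells in both libraries. This share has to be read against all genes, of which 45.3% and 44.3% were that much lower, so the count is close to the background. For Slc7a7 the call also depends on how the mid-villus class is pooled. The median log2 fold of the 9 was −1.24 and −1.16, against −0.86 and −0.82 over all genes. Cell quality moved with the same axis. The median share of mitochondrial UMIs was 3.73% and 4.18% in stem-like cells, 18.5% and 16.1% in mid-villus-like cells and 19.9% and 20.2% at the tip, and the median UMIs per cell fell from 27229 and 26621 to 3908 and 3633. Its part in the drop toward the tip was not tested.

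As a finer order of position, the enterocytes were ranked by landmark genes of the villus tip (such as Ada, Nt5e and Apoa4) against those of the bottom (such as Reg3b, Reg3g and Car4), none of them a transporter of the 9, and cut into 5 zones of equal cell number over both libraries. The landmark genes are the markers that named the bottom and tip classes, so the zones are not independent of the classes. The peptide carrier Slc15a1 went from 319 and 420 CPM in zone 1 over 811 and 1055, 898 and 1331 and 837 and 1166 to 631 and 882 in zone 5, so it peaked in zone 3 in both libraries. Slc6a19 stood at 121 and 150 CPM in zone 1 and at 652 and 642 in zone 5, a fold of 5.41 (4.92 to 5.94) and 4.28 (4.03 to 4.53), the largest rise of the 9. Its peak came before zone 5, with 867 CPM in zone 4 (Adipfl/fl) and 925 CPM in zone 3 (Adipfl/flpVilli-CreT). Slc3a1 was 2.71-fold (2.38 to 3.09) and 2.25-fold (2.06 to 2.45) higher in zone 5 than in zone 1, and Slc15a1 1.98-fold (1.82 to 2.14) and 2.10-fold (2.01 to 2.19). The peak of Slc3a1 was likewise in zone 4 (312 CPM) and zone 3 (314 CPM). Slc7a9 kept close to its first level, with 0.948 (0.834 to 1.07) and 0.939 (0.871 to 1.01). These 4 brush border genes still held 66.2% to 81.1% of their highest zone in zone 5.

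The other 5 did not. Slc7a8 had 312 and 374 CPM in zone 1, 338 and 381 in zone 2, 118 and 130 in zone 3, 42.8 and 46.9 in zone 4 and 8.43 and 14.7 in zone 5, so that zone 5 held 2.49% and 3.84% of its peak. Slc6a20a held 10.3% and 10.5% of its peak in zone 5, Slc3a2 23.3% and 23.4%, and Slc7a7 27.5% and 24.5%. Slc7a15 ran from 49.9 and 57.9 CPM in zone 1 to a peak of 279 and 289 in zone 3 and back to 70.5 and 71.2 in zone 5, which was 25.2% and 24.6% of the peak. Slc7a8, Slc6a20a, Slc7a7 and Slc3a2 thus had their highest zone in 1 or 2, and Slc15a1, Slc6a19, Slc7a9, Slc3a1 and Slc7a15 in 3 or 4.

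**Figure D3:**
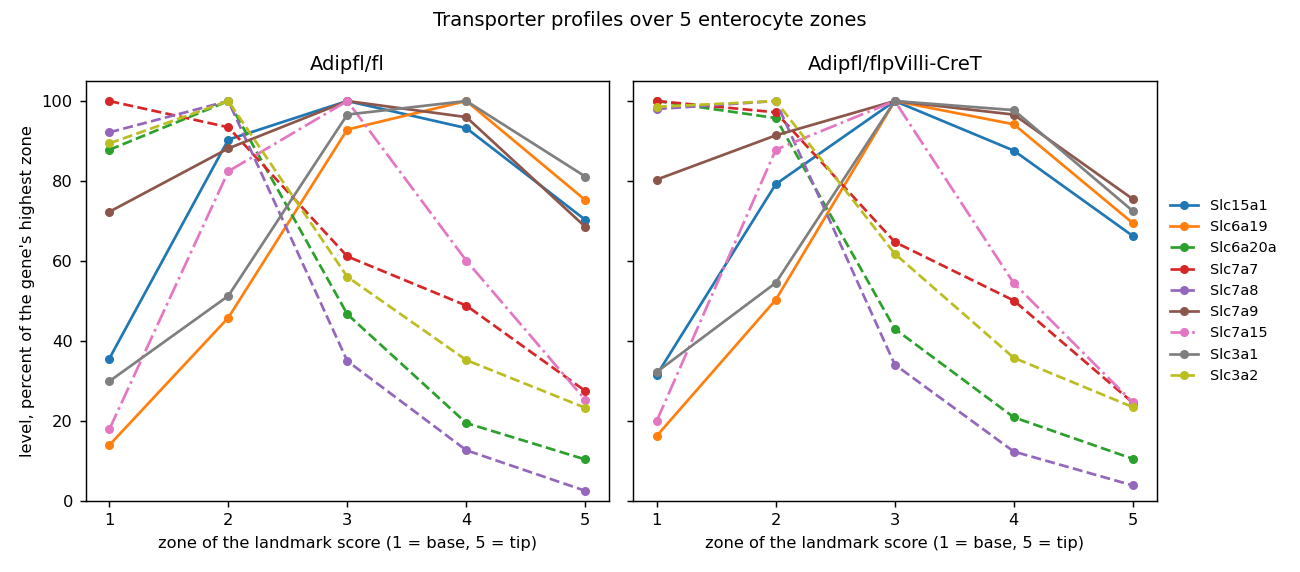
Level in 5 enterocyte zones (horizontal axis, 1 at the villus base and 5 at the tip), as percent of each gene's highest zone, in both libraries; solid lines mark Slc15a1, Slc6a19, Slc7a9 and Slc3a1, the dash-dotted line Slc7a15, and dashed lines Slc6a20a, Slc7a7, Slc7a8 and Slc3a2. In zone 5 the solid lines lie between 66.2% and 81.1% and the others at or below 27.5%; no error bars are drawn.

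The share of cells with a UMI moved the same way from mid-villus to tip when each cell was thinned to 2000 UMIs. Slc15a1 was seen in 74.3% and 83.5% of mid-villus-like cells and in 70.9% and 79.7% of tip-like cells, and Slc6a19 in 58.5% and 61.0% and then in 65.3% and 70.6%. Slc7a8 was seen in 38.4% and 42.1% of mid-villus-like cells and in 2.99% and 4.95% of tip-like cells. In T cell-like cells, which should lack these carriers, the shares at the same depth were 5.40% and 12.3% for Slc15a1, 6.25% and 8.09% for Slc6a19 and 0.852% and 1.72% for Slc7a8.

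Free RNA from broken enterocytes can reach other droplets, so the low levels outside the villus were set against an estimate of the level carried over with it. The summed level of 9 abundant enterocyte genes (among them Apoa1, Apoa4, Fabp1, Fabp2 and Sis) in a class, as a share of that in enterocytes, was 2.48% and 4.53% in stem-like cells, 4.99% and 6.94% in TA-like cells, 6.72% and 17.2% in T cell-like cells, 23.9% and 35.7% in goblet-like cells, 12.1% and 31.1% in enteroendocrine-like cells and 30.2% and 37.3% in tuft-like cells. It was higher in the Adipfl/flpVilli-CreT library in each of these classes. The expected level of a transporter, called the carried-over level here, is its level in enterocytes times this share. It takes the whole share as carried-over RNA. A class that makes these enterocyte genes itself, or holds droplets with an enterocyte in them, would also have a higher share. The part of either was not tested.

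In the crypt the 9 genes fell apart by this measure. In TA-like cells Slc15a1 had 0.493 (0.297 to 0.771) and 0.676 (0.549 to 0.824) times the carried-over level, Slc6a19 0.80 (0.489 to 1.24) and 0.915 (0.716 to 1.15), and Slc7a15 0.794 (0.319 to 1.64) and 0.674 (0.393 to 1.08). In stem-like cells the intervals of these 3 genes held 1 in both libraries. The crypt levels of these 3 genes were thus not above the expected level by more than counting error, and Slc15a1 in TA-like cells was below it in both libraries. Their folds from stem-like to mid-villus-like cells rest on such levels. The other 6 exceeded it in TA-like cells of both libraries: Slc7a8 12.2-fold (10.6 to 14.0) and 6.88-fold (6.20 to 7.62), Slc3a2 9.81-fold (8.37 to 11.4) and 6.27-fold (5.61 to 6.99), Slc7a9 7.23-fold (6.02 to 8.62) and 4.15-fold (3.62 to 4.74), Slc6a20a 5.46-fold (3.93 to 7.37) and 4.65-fold (3.72 to 5.74), Slc7a7 4.69-fold (3.501 to 6.15) and 4.15-fold (3.49 to 4.89), and Slc3a1 3.54-fold (2.51 to 4.83) and 2.35-fold (1.85 to 2.94). In stem-like cells Slc3a2, at 14.3-fold (11.2 to 18.0) and 5.62-fold (4.79 to 6.54), and Slc7a8, at 9.72-fold (7.22 to 12.8) and 4.18-fold (3.48 to 4.97), stood highest above it. Slc7a9 and Slc6a20a exceeded it there in the Adipfl/fl library only. In stem-like cells of the Adipfl/flpVilli-CreT library the intervals of 5 of 9 genes held 1, these 2 among them. Their folds from stem-like to later classes in that library also rest on such levels.

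**Figure D4:**
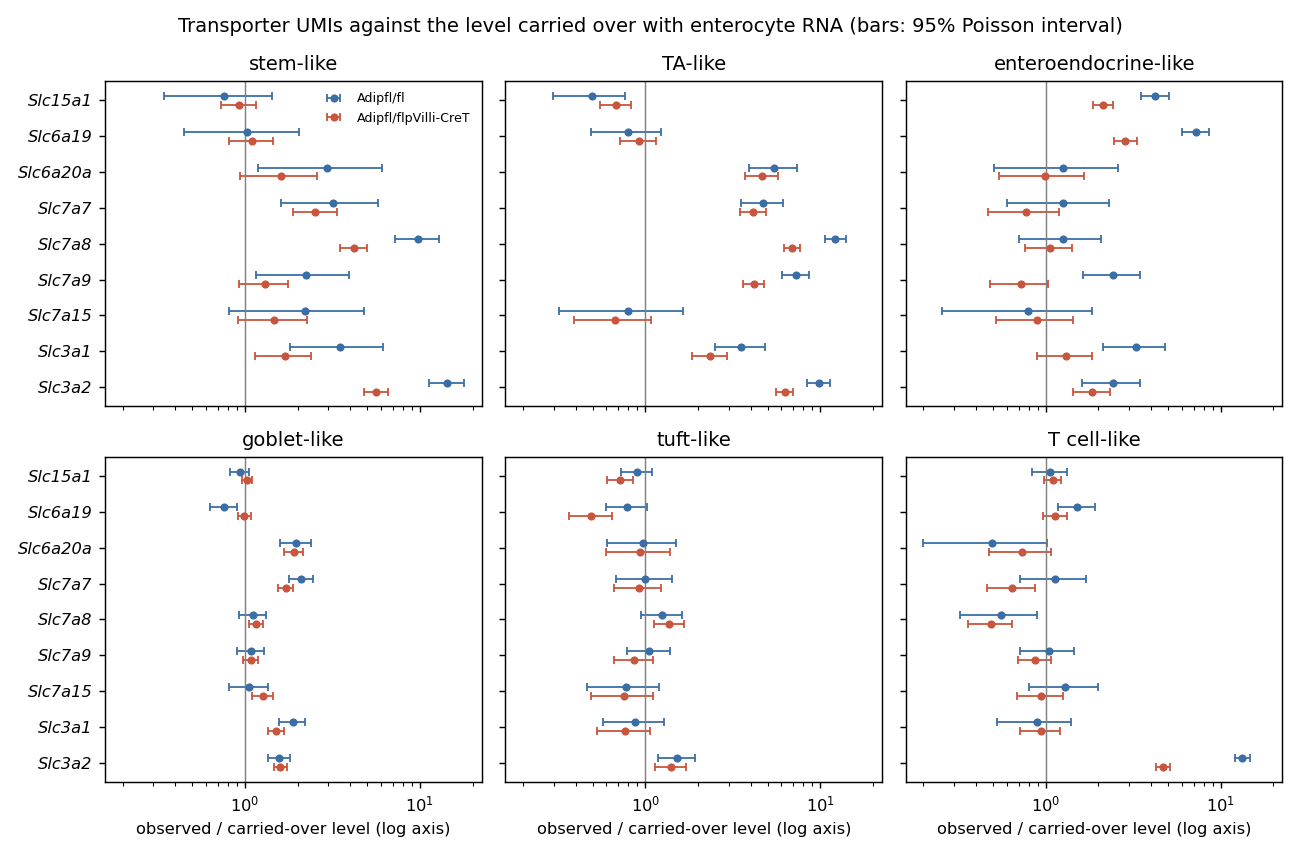
Observed level of each transporter over the level carried over with enterocyte RNA (horizontal log axis, grey line at 1) in 6 classes and both libraries; bars are 95% Poisson intervals on the UMIs of the transporter. Slc15a1, Slc6a19 and Slc7a15 lie at or below 1 in TA-like cells, Slc15a1 and Slc6a19 above 1 in enteroendocrine-like cells and Slc3a2 far above 1 in T cell-like cells.

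Outside the absorptive lineage, some of the 9 genes were above this level. In enteroendocrine-like cells, the hormone-secreting cells of the epithelium, Slc6a19 stood at 326 and 367 CPM, 7.22 times (6.03 to 8.57) and 2.85 times (2.44 to 3.31) the carried-over level. Slc15a1 stood there at 293 and 503 CPM, 4.22 times (3.49 to 5.05) and 2.12 times (1.86 to 2.41). Slc3a2 was above it in both libraries as well, at 2.41 times (1.61 to 3.46) and 1.84 times (1.44 to 2.32), and the intervals of Slc7a15, Slc6a20a, Slc7a7 and Slc7a8 held 1. The libraries differed for the brush border pair, with Slc3a1 at 3.27 times (2.14 to 4.79) and 1.30 times (0.891 to 1.84) and Slc7a9 at 2.41 times (1.63 to 3.44) and 0.719 times (0.481 to 1.03). At 2000 UMIs per cell 43.1% (22 of 51) and 41.5% (22 of 53) of enteroendocrine-like cells held a UMI of Slc15a1, against 3.92% and 5.66% for Slc7a15. Droplets that hold an enteroendocrine cell and an enterocyte together were not removed, and their part was not tested.

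In T cell-like, B or plasma-like and myeloid-like cells Slc3a2, known as an activation antigen of lymphocytes, was the 1 gene of the 9 above the carried-over level in both libraries. It had 223 (202 to 246) and 218 (199 to 239) CPM in T cell-like cells, 13.3 times (12.02 to 14.6) and 4.67 times (4.26 to 5.12) the carried-over level, and was seen in 32.4% and 33.8% of these cells at 2000 UMIs. Its levels were 183 and 165 CPM in B or plasma-like cells and 214 and 216 CPM in myeloid-like cells. In goblet-like cells Slc7a7, Slc6a20a, Slc3a1 and Slc3a2 were 1.51 to 2.10 times the carried-over level in both libraries. In tuft-like cells Slc3a2 was at 1.52 (1.19 to 1.92) and 1.40 (1.14 to 1.70) times it, while Slc15a1 and Slc6a19 were not above it.

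Between the genotypes, none of the 9 genes differed by 1.5-fold or more in villus bottom-like, mid-villus-like or villus tip-like cells. Over all genes tested, 2.03%, 2.78% and 8.11% did, so with only 9 genes the count is close to the background. The count at the tip was 6 of 9 with a mitochondrial limit of 10%, which left 5 and 22 cells, and 1 of 9 without the highest doublet scores, with the transporters in the clustering, with thinned cells or with no mitochondrial limit. At the bottom it was 1 of 9 with thinned cells. The share over all genes was not computed under these settings, so these counts have no background to be read against. In each of these classes 8 of 9 genes were higher in the Adipfl/flpVilli-CreT library, where 51.4%, 53.9% and 55.5% of all genes were. This count fell to 5 at the tip with fewer clusters (resolution 0.4), to 4 at the tip with the libraries centred and to 5 at the bottom with thinned cells, so it depends on the processing. For these settings too the share over all genes was not computed. The median log2 fold of the 9 was 0.11, 0.20 and 0.11, against 0.01, 0.02 and 0.04 over all genes.

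Slc15a1 had the largest of these differences in all 3 classes. The fold of Adipfl/flpVilli-CreT over Adipfl/fl was 1.34 (1.247 to 1.44) at the villus bottom, 1.28 (1.24 to 1.32) in mid-villus-like cells and 1.42 (1.34 to 1.501) at the tip, and 1.58 (1.48 to 1.70) in the unnamed enterocyte cluster. Of all genes tested, 2.81%, 5.25% and 7.02% had a higher fold in the bottom, middle and tip classes. By zone the levels were higher in the Adipfl/flpVilli-CreT library in 5 of 5 zones. The same direction held where the gene did not exceed the carried-over level by more than counting error: 41.0 and 144 CPM in T cell-like cells and 10.8 and 32.0 CPM in stem-like cells, classes in which the carried-over share was also higher in that library. With 1 library per genotype, the genotype, the mice pooled and the preparation cannot be told apart.

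The other 8 genes differed less. The mid-villus-like class joins 3 clusters in unequal shares, and the largest by cell number held 468 of 840 and 609 of 1378 cells. Its median was 4000 UMIs per cell, against 9761 and 17934 in the other 2. Pooled levels are sums of UMIs, so the clusters weigh by UMIs and not by cells. In mid-villus-like cells Slc7a8 was 1.201-fold (1.14 to 1.26), Slc7a7 1.18-fold (1.11 to 1.26), Slc3a2 1.15-fold (1.10 to 1.21), Slc6a19 1.15-fold (1.10 to 1.196) and Slc7a9 1.09-fold (1.04 to 1.15) higher in the Adipfl/flpVilli-CreT library. Slc3a1 (1.01-fold, 0.944 to 1.08) had an interval that held 1, and that of Slc7a15 (1.06-fold) began at 1.00. Slc6a20a was the 1 gene lower in that library over the whole class, at 0.866-fold (0.803 to 0.934), with 0.937-fold (0.853 to 1.03) at the bottom and 0.863-fold (0.616 to 1.23) at the tip. Within the 3 mid-villus clusters Slc6a20a had folds of 0.848 (0.766 to 0.939), 0.709 (0.618 to 0.815) and 1.06 (0.863 to 1.30). Those of Slc6a19 ran from 1.21 to 1.27, all above its pooled value, and those of Slc15a1 from 1.21 to 1.42. At the tip Slc15a1 was the 1 gene of the 9 whose interval left out 1. In stem-like and TA-like cells the UMIs of 7 of 9 genes gave intervals that held 1, and Slc15a1 and Slc6a19, which there did not exceed the carried-over level by more than counting error, did not.

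**Figure D5:**
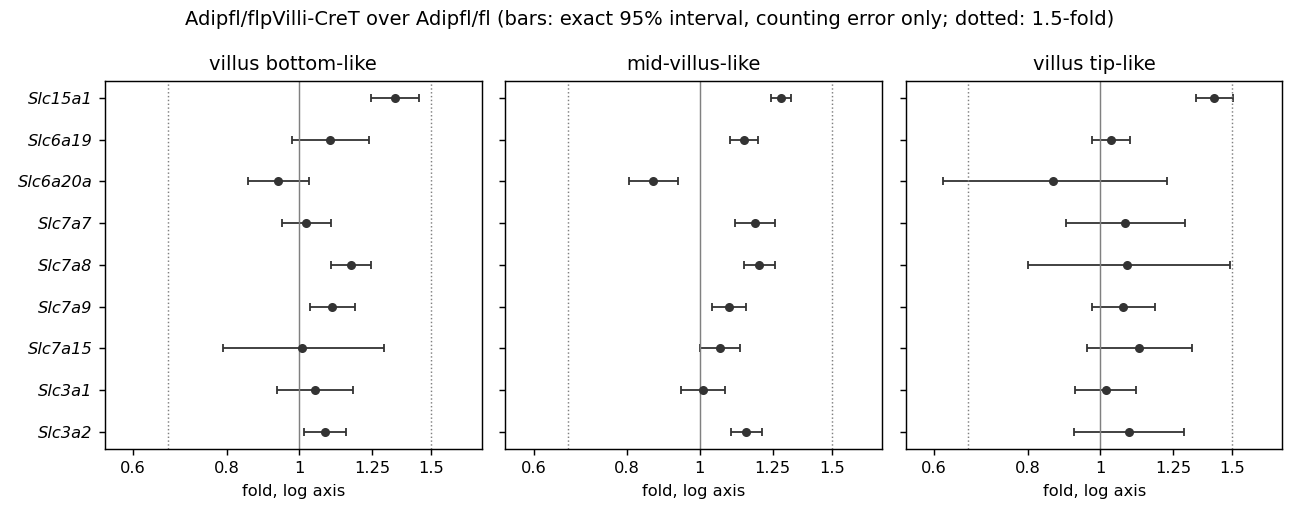
Fold of the Adipfl/flpVilli-CreT over the Adipfl/fl library (horizontal log axis, solid line at 1, dotted lines at 1.5-fold either way) for each gene in villus bottom-like, mid-villus-like and villus tip-like cells; bars are exact 95% intervals of counting error. Slc15a1 lies furthest to the right in each class, at 1.34, 1.28 and 1.42, and Slc6a20a is the 1 gene below 1 in each.

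A wider list of 37 other amino acid carriers and partner proteins was laid beside the 9 genes. Of its members, 15 and 16 were abundant enough to compare stem-like with mid-villus-like cells, and 8 in each library were at least 2-fold higher in mid-villus-like cells. The share over all genes tested was 19.9% and 19.0%. This list was also chosen with earlier results of these data known. Pdzk1, a scaffold of the brush border, went from 1.198 and 7.58 to 295 and 295 CPM. Slc43a2, a carrier for large neutral amino acids, went from 14.4 and 26.1 to 885 and 946 and down to 118 and 159 at the tip, and Slc9a3, the sodium-proton exchanger that feeds proton-coupled uptake, from 7.19 and 3.79 to 179 and 154. In the other direction, Slc1a5, a glutamine carrier, fell from 69.5 and 68.2 CPM in stem-like cells to 1.33 and 0.844 in mid-villus-like cells, Slc7a1, a carrier for basic amino acids, from 115 and 97.7 to 3.98 and 3.87, and Slc38a1, a glutamine carrier, from 73.1 and 102 to 13.6 and 10.5. Slc7a5, another light chain of Slc3a2, had 11.98 and 13.5 CPM in stem-like cells (10 and 32 UMIs) and 0 and 5 UMIs in mid-villus-like cells.

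None of the wider list differed by 1.5-fold between the libraries among the 13, 12 and 9 members compared at the bottom, middle and tip. Of all genes tested 2.03%, 2.78% and 8.11% did, so with so few members the count is close to the background. In mid-villus-like cells Slc6a6, the taurine carrier, had a fold of 1.32 (1.248 to 1.41), Slc1a1, a glutamate carrier, 1.30 (1.02 to 1.66) and Slc9a3r1, a scaffold, 1.19 (1.16 to 1.22), while Slc38a1 had 0.767 (0.593 to 0.996), Slc9a3 0.858 (0.801 to 0.919) and Pdzk1 1.00 (0.950 to 1.05). At the tip Slc36a1, a proton-coupled amino acid carrier, had a fold of 1.38 (1.03 to 1.88), Slc43a2 1.34 (1.17 to 1.54) and Slc16a10, a carrier for aromatic amino acids, 1.34 (1.12 to 1.61), while Slc38a2 had 1.06 (0.861 to 1.31) and Pdzk1 1.15 (0.977 to 1.36).

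The genes most like each transporter were found by the Pearson correlation of log2(CPM + 1) over 22 points (11 named classes in 2 libraries, so classes of 1 library share depth and free RNA) among 7438 genes, as a description. Slc15a1 was most like Ceacam20 (0.968), Slc6a19 (0.958) and Asah2 (0.955), and Slc6a19 like Slc15a1 (0.958), Selenop (0.952) and Ormdl3 (0.949). Slc7a8 was most like Aqp11 (0.977), Maoa (0.9753) and Car13 (0.969), Slc7a7 like Myo5b (0.966), Cyp2j6 (0.966) and Slc35f5 (0.956), and Slc6a20a like Tkfc (0.959), Tubal3 (0.943) and Stx12 (0.937). Slc7a15 was most like Enpp7 (0.961), Dnase1 (0.939) and Bst1 (0.929), Slc7a9 like Zzef1 (0.954), Erich4 (0.948) and 2200002D01Rik (0.944), and Slc3a1 like Dgat2 (0.949), Sec16b (0.939) and Gal3st2 (0.938). Slc3a2, which the immune classes also hold, had lower values, with Gnpda1 (0.829), Ebpl (0.818) and Snx20 (0.813).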

How the data were processed

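The deposited matrices hold UMI counts per gene and barcode, made by the authors with Cell Ranger (7.1.0 in the file headers) against mm10, a build named in the submitters' processing notes. The annotation release behind the counts is not given in the sources used here. The members and gene lists were chosen with earlier results of these data known. Barcodes with over 500 genes and under 25% mitochondrial UMIs were kept, the limits in the study's methods, which leave fewer cells here than the study counts. Counts were log-normalised and clustered in Seurat 5.3.0 (2000 variable genes without the transporters, 20 components, resolution 0.8), and clusters were named from fixed markers at least 2-fold above the other cells. Doublets were not removed. UMIs were summed per class with exact Poisson intervals, folds had exact conditional intervals and shares Clopper-Pearson intervals (scipy 1.17.1). Genes entered a fold at 10 CPM in the higher group and 20 UMIs over both. The fold calculation was run on counts simulated from the Poisson model that its intervals assume, without any spread between cells or mice. Such a run checks the calculation only. Of the wider list, the 3 largest rises and falls in each comparison were named, except for items that are not reported here, and for each transporter the 3 most similar genes among those of at least 50 CPM in a class. Transcript ends were compared with BLAST 2.17.0.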

Additional observations from a re-analysis of the deposited data

How the results depend on the processing

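No paired analysis was possible because each genotype has 1 library. With 1 library each, no alternative addresses the spread between mice, and low counts in stem-like cells limit the folds: that of Slc15a1 from stem-like to mid-villus-like cells ran from 18.9 to 97.6 in the Adipfl/fl library. Of the folds along the crypt-villus axis recomputed under the alternatives, 385 stayed within their main interval, 116 moved outside it and 3 changed direction. Between libraries these numbers were 335, 42 and 1, for carry-over 255, 26 and 1, and for zones 30, 22 and 2. A change of direction was counted only where the main interval left out 1. Folds with a main interval that held 1 could cross 1 and are not in that count. Of the shares of cells with a UMI, 140 stayed within their interval and 292 moved with the depth of thinning, as for Slc15a1 in enteroendocrine-like cells of the Adipfl/fl library (43.1% at 2000 UMIs, 24.1% at the lower depth and 68.5% unthinned). Slc15a1 stayed higher in the Adipfl/flpVilli-CreT library, at 1.21 to 1.44 at the villus bottom, 1.26 to 1.38 in mid-villus-like and 1.37 to 1.53 in villus tip-like cells. At resolution 0.4 the tip over mid-villus fold in the Adipfl/fl library became 1.05 for Slc15a1 and 1.06 for Slc7a9, and with a mitochondrial limit of 10% it became 1.27 for Slc7a15. In the Adipfl/flpVilli-CreT library the last over first zone of Slc7a15 was 0.973 with 3 zones and 0.946 with cells thinned to 2000 UMIs, and Slc15a1 over carry-over in tuft-like cells reached 1.02 with 1 reference gene left out. With thinned cells Slc3a2 stood at 0.910 between libraries at the villus bottom, 5 of 9 genes were higher in the Adipfl/flpVilli-CreT library there and 1 differed by 1.5-fold. At the tip 6 genes differed by 1.5-fold with the 10% limit, which left 5 and 22 cells, and 1 did without the highest doublet scores, with the transporters in the clustering, with thinned cells or with no mitochondrial limit. At the tip 5 genes were higher at resolution 0.4 and 4 with libraries centred. Shares over all genes were not computed for these counts of the 9 genes. The genes past 1.5-fold (153, 195 and 447 at bottom, middle and tip) became 37, 43 and 78 at 2-fold, 37, 49 and 85 with at least 50 CPM, and 6566, 8261 and 7343 with no minimum. Where a value changed, the cause was not tested.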
